A study of Diplotaxodon limnothrissa and Petrotilapia genalutea and Rhamphochromis longiceps with 60 samples.

Results

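Differentially methylated regions (DMRs) between 3 Lake Malawi cichlid species were listed by the study once for liver and once for skeletal muscle, and the regions found in both tissues are described here. A shared DMR was taken as a region of the liver list that overlaps at least 1 bp of a region of the muscle list. By this rule 2452 of the 5787 liver regions were shared, which is 42.4% (exact binomial interval at 95%, 41.1 to 43.7%). Counted from the other side, 2566 of the 4390 muscle regions overlapped a liver region, which is 58.5% (57.0 to 59.9%). The shared DMRs are part of a deposited set of 50673 regions in 4 lists. The totals of the liver and the muscle list were counted in this set and differ slightly from those printed in the study's text.

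The species were Diplotaxodon limnothrissa (DL), Petrotilapia genalutea (PG) and Rhamphochromis longiceps (RL), all sampled as wild-caught adult males, and whole homogenised tissue was used, so each methylome is a mixture of the cell types of the organ. Whole-genome bisulfite sequencing, which converts unmethylated cytosines and leaves methylated ones, was done on muscles of 2 fish of each species. The liver libraries came from 3 fish of DL, 3 of PG and, by their labels, 3 of RL, while the study's methods count 2 RL livers and the label of the RL liver signal track also says 2. Every muscle carries the number of a fish whose liver was sequenced as well, so the lists of the tissues share fish and are not independent samples of a species. The numbers of fish per tissue differ, and tissue and number of fish cannot be told apart in any difference between the liver and the muscle list. By their labels, the muscle libraries of DL and PG had 2 sequencing runs each. Labels of the RL muscles and of the livers of these species carry no run number. A label without a run number does not state how many runs there were. As labelled, runs go with tissue in DL and PG, and with species within the muscle list, and cannot be told apart from them.

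Cytosine methylation in vertebrates sits mostly on CG dinucleotides, is copied after DNA replication by maintenance methyltransferases, and is high over most of the genome and low at many active promoters and CG islands. A DMR is a run of neighbouring CG sites whose methylation level differs between groups. Hepatocytes derive from endoderm and skeletal muscle fibres from mesoderm, while both organs also hold blood and vessel cells of mesodermal origin.

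The lists hold the sequence name, start and end of each region on the M. zebra UMD2a assembly. They carry no methylation level, direction, pair of species, number of CG sites, read depth or value per fish. Overlapping regions may therefore differ in which species stand apart in each tissue, and the share of such cases was not tested. A region entered a list only if it passed the authors' cutoffs, among them a least methylation difference and a p-value. A region that is not shared may thus differ between species in the other tissue too, without passing them there. How often this is so was not tested. There is no replicate of a list, so the results are counts, lengths and distances with no test. Intervals on shares cover counting error only, and those on medians likewise treat each region as a separate draw. Neighbouring regions are not independent, which those intervals do not include. An annotation of this assembly was not used here, and no region is assigned to a gene.

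The tissue labels were checked in the RNA-seq libraries of the same 3 species. The liver gene fgb, which encodes the beta chain of fibrinogen, a clotting protein secreted by the liver, lay between 2792 and 13504 TPM (transcript abundance with an equal sum for each library) in 8 livers and between 1.56 and 2.99 TPM in 9 muscles. The muscle gene actn3, encoding the alpha-actinin of fast muscle fibres, lay between 1247 and 2839 TPM in the muscles and between 0.350 and 22.4 TPM in the livers. The ranges of the tissues did not overlap for either gene. This checks the RNA-seq libraries only, and the tissue of the bisulfite libraries behind the lists was not checked.

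Shared DMRs were first examined for how closely the liver and the muscle region match. The 2452 shared DMRs formed 2615 overlapping pairs with muscle regions. In 394 pairs (15.1%) both regions had the same first and last base. A further 528 pairs had only the start in common and 529 only the end, so that 1451 pairs (55.5%) shared at least 1 boundary. The longest region with identical boundaries in both lists lay on NC_036791.1 from 16578777 to 16582837, a stretch of 4061 bp. The 394 regions with identical boundaries ranged from 50 to 4061 bp, with a median of 354 bp.

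Where boundaries differed, the muscle region was usually the shorter one. It lay inside the liver region in 1424 pairs (54.5%), and the liver region lay inside the muscle region in 424 (16.2%). The remaining 373 pairs (14.3%) were staggered, each region reaching beyond the other on one side. The liver region was the longer of the pair in 1637 cases and the muscle region in 583. In total 1.19 Mb was common to both lists, which is 70.5% of the bases of the shared DMRs and 87.8% of the bases of their muscle partners.

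The overlap of single shared DMRs ranged from complete to marginal. The median shared DMR had 83.0% of its bases within muscle regions (quartiles 53.7 and 100%), and 818 (33.4%) lay entirely within them. At least 50% of the region was covered in 1911 shared DMRs (77.9%), and under 10% in 52. The common stretch of a pair had a median of 335 bp and reached from 1 to 4073 bp.

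**Figure D1:**
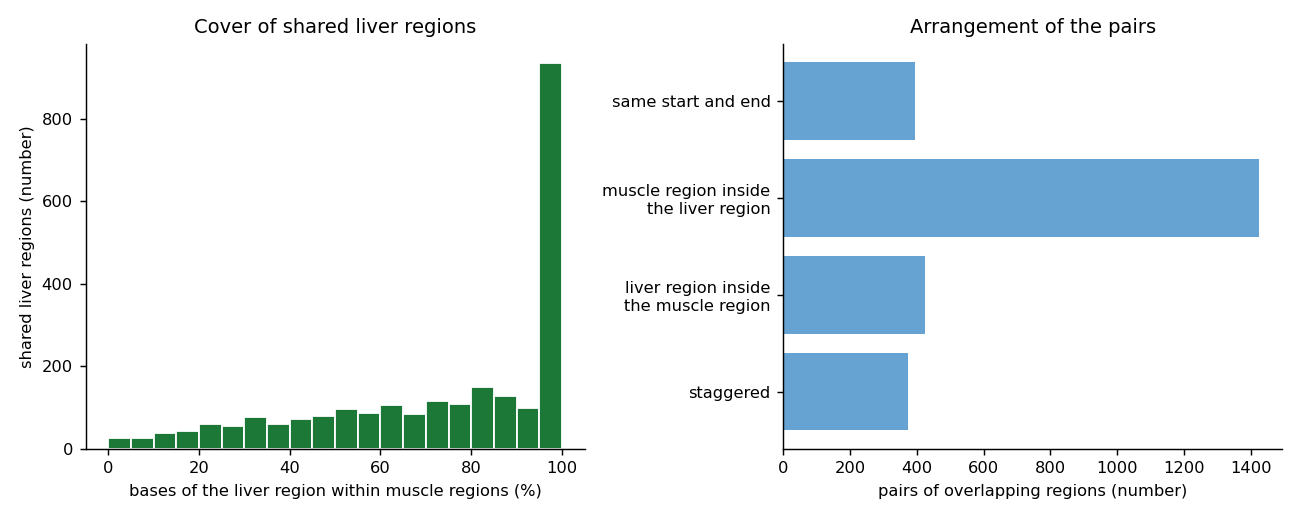
The left plot shows how many shared liver regions have a given percentage of their bases within muscle regions, in bins of 5%. The right plot counts the 2615 pairs of overlapping regions by arrangement; the tall last bin holds the 818 fully covered regions among others, and muscle regions inside the liver region are the most frequent arrangement with 1424 pairs.

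A few members lie at the edge of the rule. The common stretch was a single base in 21 pairs and under 10 bp in 25. One such pair lay on NC_036780.1, where a liver region ends at 7348124 on the base at which a muscle region of 176 bp starts. Just outside the rule, 4 liver regions abutted a muscle region without sharing a base, and 6 lay within 10 bp of one. Within 1000 bp of a muscle region were 251 of the liver regions that were not shared (7.53%).

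Most shared DMRs met 1 muscle region, and those that met several were mostly long. There were 2308 members with 1 muscle partner, 129 with 2, 12 with 3, 2 with 4 and 1 with 5. The 144 members with several partners had a median length of 1498.5 bp. Long members did not all have several partners, since 480 shared DMRs reached at least 1000 bp. The opposite case, a muscle region that joins several liver regions, occurred 48 times, 47 of them with 2 liver regions and 1 with 3.

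The 10 longest shared DMRs measured between 4262 and 6223 bp, and some of them show how a long liver region can be divided in muscle. The longest lay on NC_036792.1 from 11957664 to 11963886. Muscle regions of 1054, 831, 72 and 3260 bp fell along it and covered 83.4% of its bases. On NC_036800.1 the region from 8189603 to 8194811 (5209 bp) met 5 muscle regions of 326 to 1446 bp, which covered 68.1% of it. A region of 5227 bp on NC_036790.1, from 19277339 to 19282565, was covered to 88.6% by muscle regions of 560 and 4073 bp.

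Long members were not always well covered. The region of 4782 bp on NW_020193008.1, from 32310 to 37091, shared 533 bp (11.1%) with muscle regions of 135 and 3131 bp. On NC_036790.1 the region from 18642849 to 18647110 was covered to 25.04% by muscle regions of 537 and 530 bp. Of the 10 longest, 3 lay on NC_036790.1, 2 on NC_036784.1 and 2 on NC_036800.1.

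Shared DMRs were longer than the rest of the liver list. Their median length was 518 bp (interval of the median from order statistics, 497 to 542 bp) with quartiles of 297 and 862 bp, against 216 bp (207 to 222 bp) in the 3335 liver regions that were not shared. At least 1000 bp was reached by 480 shared DMRs (19.6%) and by 96 of the others (2.88%). At the short end, 97 shared DMRs (3.96%) measured 100 bp or less, against 788 (23.6%) of the liver regions not shared. The muscle list showed the same order, with medians of 407 bp in muscle regions that overlap a liver region and 169 bp in those that do not. DMRs between tissues within a species had a median of 249 bp.

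The share found in both tissues rose with length. It was 10.96% of the 885 liver regions of 50 to 100 bp, 30.5% of the 945 of 201 to 300 bp, 68.9% of the 1147 of 501 to 1000 bp and 85.2% of the 115 over 2000 bp. In the muscle list the share went from 31.3% in the shortest class to 91.3% of the 288 regions of 1001 to 2000 bp, and stood at 90% of the 50 regions over 2000 bp. The rule itself enters here, since a region with more bases has more chances to meet another. How much of the difference in length comes from this was not tested. By bases, the shared DMRs held 63.3% of the liver list and their partners 75.5% of the muscle list.

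**Figure D2:**
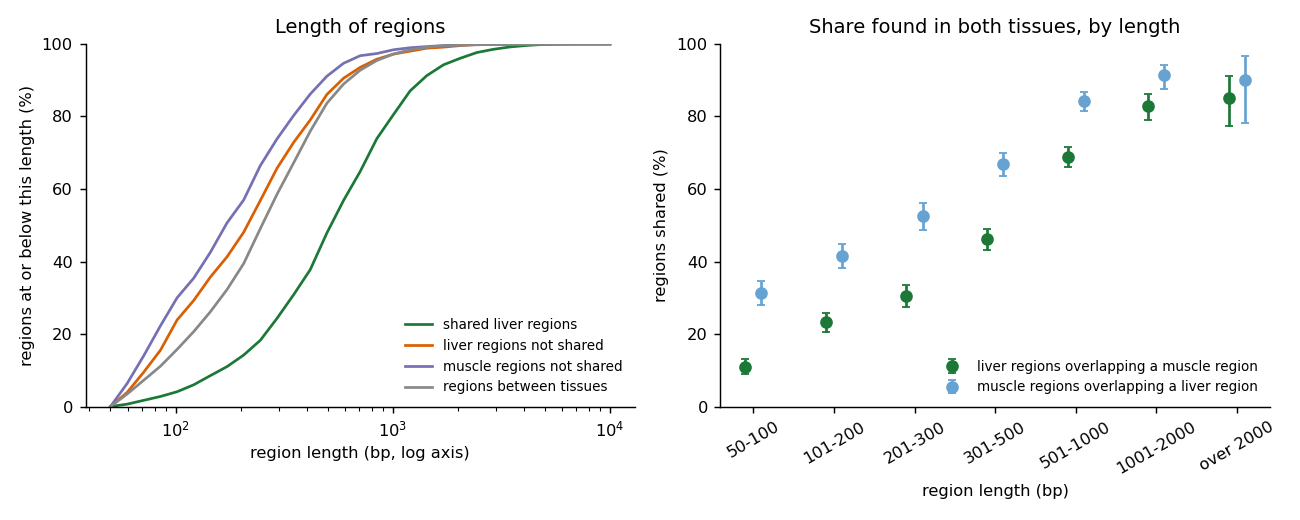
The left plot gives the cumulative percentage of regions at or below a length in bp, on a log axis, for shared liver regions, liver regions not shared, muscle regions not shared and regions between tissues. The right plot gives the percentage of regions found in both tissues by length class for the liver and the muscle list, with exact binomial 95% intervals as bars; the curve of shared regions lies to the right of the others (median 518 bp) and the liver share climbs from 10.96 to 85.2%.

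Every shared DMR also lay within a region of the list called among livers of all 6 species of the study, as did every other liver region of the 3 species. The 6 species include DL, PG and RL, and the study called DMRs across any pair of species. This containment is therefore no separate evidence for the regions. The boundaries were the same in both liver lists for 1295 shared DMRs (52.8%) and for 2014 of the liver regions not shared (60.4%). Within classes of length from 301 to 2000 bp these percentages differed by less than 3 points between the groups, and they stood further apart in the shorter classes, with 53.6% of 97 shared and 68.3% of 788 other regions of 50 to 100 bp, and over 2000 bp, with 49.0% of 98 and 64.7% of 17. Where the region in the 6-species list was longer than the shared DMR, it added a median of 183 bp.

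Shared DMRs occurred on all 22 placed sequences of the assembly, the chromosome-scale sequences whose names start with NC_. These held 1976 of the 2452 members (80.6%), against 71.4% of the liver regions not shared and 89.8% of the DMRs between tissues. The other 476 members were spread over 297 unplaced sequences, with at most 15 on one of them. On placed sequences 45.4% of the 4356 liver regions were shared, and on unplaced ones 33.3% of 1431. Of the liver regions not shared, 375 lay on sequences without any muscle region, where no liver region could be shared. Every placed sequence held muscle regions, so these 375 were all unplaced. They lower the shared percentage on unplaced sequences, which is therefore not directly comparable with that on placed ones. They also lower the 71.4% of unshared liver regions that were placed. Neither difference can therefore be read as shared DMRs lying more on placed sequences. Unplaced members were also somewhat shorter, with a median of 458 bp against 536 bp.

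The percentage of liver regions that were shared varied among placed sequences, and the intervals of 2 of them did not include the overall value. It ran from 36.2% of 315 liver regions on NC_036782.1 (30.9 to 41.8%) to 53.1% of 179 on NC_036780.1 (45.5 to 60.6%). These intervals do not overlap, but they belong to the lowest and highest of 22 sequences, picked after the values were seen. Their separation is therefore no test of a difference. With 22 intervals, some can miss the overall value by counting error alone. That of NC_036780.1 starts at 45.48%, just above the 45.36% over all placed sequences. The intervals of the other 20 sequences included the value of 45.4% over all placed sequences. NC_036782.1 had the most liver regions not shared per length, at 5.39 per Mb, where the other sequences had between 2.18 and 3.73. Its density of shared DMRs, 3.06 per Mb, was above that over all placed sequences, so its low percentage came with many unshared regions rather than few shared ones. That overall density was 2.60 shared DMRs per Mb, and it ran from 1.75 on NC_036787.1 to 3.19 on NC_036797.1. These densities were taken over the span up to the furthest listed region, since true lengths of the sequences were not used here.

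Lengths within a sequence spread widely around its median. Medians over many regions vary less than single lengths, so the spread within and between sequences was not compared. Median lengths ran from 447.5 bp on NC_036788.1 (46 members) to 712 bp on NC_036781.1 (66 members), while the quartiles on the latter alone were 363 and 1105 bp. The interval of the median included the 536 bp over all placed members on all 22 sequences. That value counts the members of each sequence too. Shared DMRs had a longer median than unshared liver regions on each of the 22 sequences, where the unshared medians lay between 179 and 286.5 bp.

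**Figure D3:**
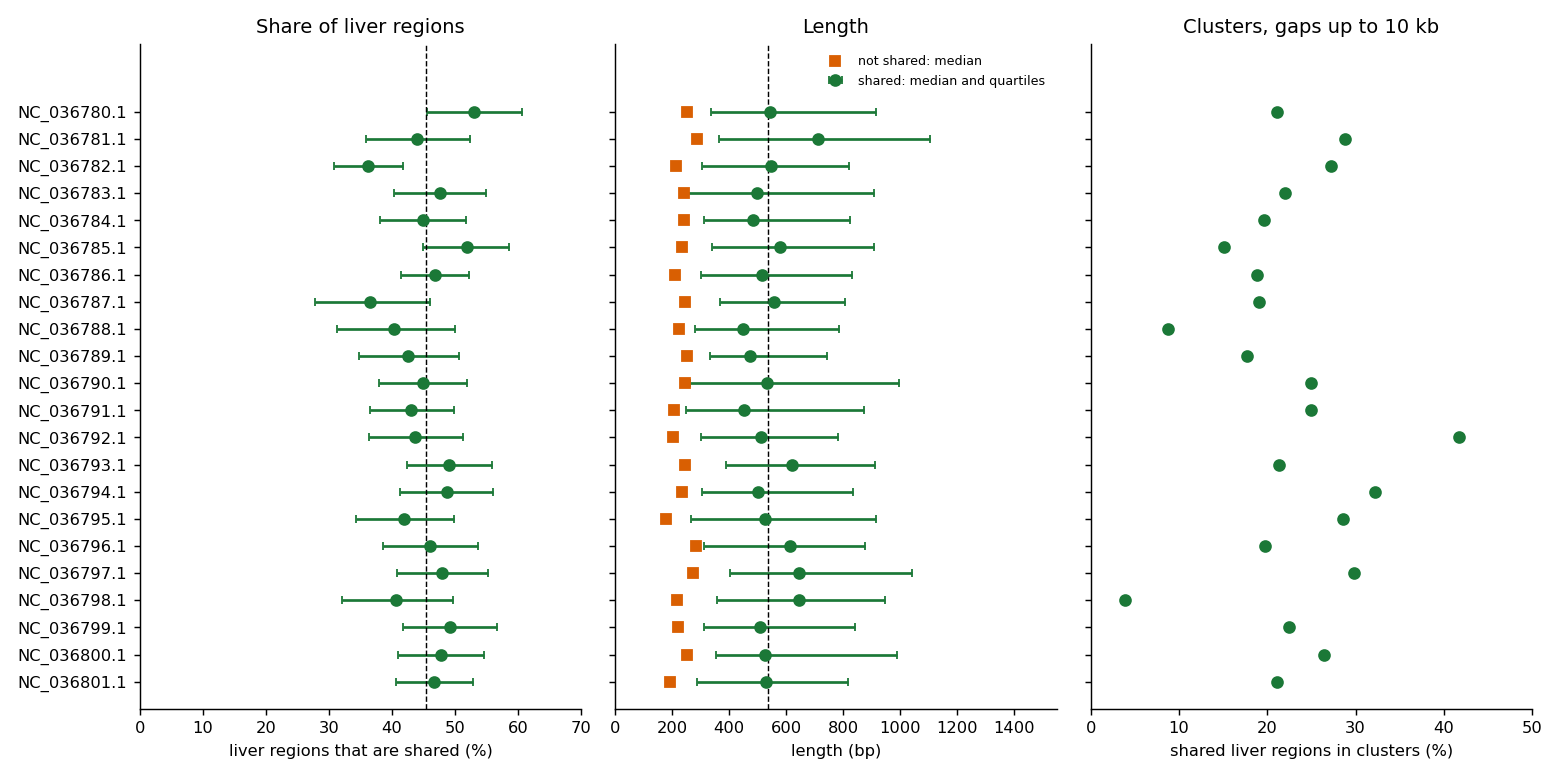
For each of the 22 placed sequences, the left plot gives the percentage of liver regions that are shared with its exact binomial 95% interval and a dashed line at 45.4%. The middle plot gives the median length of shared regions in bp with the quartiles as bars, the median of liver regions not shared as squares and a dashed line at 536 bp, and the right plot the percentage of shared regions in clusters; the medians of shared regions exceed those of unshared ones on every sequence.

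Along the sequences, shared DMRs, like the other species DMRs, were towards the ends more often than DMRs between tissues. When each span was divided into 10 equal parts, the first and the last part together held 515 of 1976 shared DMRs (26.1%), 556 of 2380 unshared liver regions (23.4%) and 4050 of 24393 DMRs between tissues (16.6%). The last part held 288 shared DMRs and was the fullest of the 10. The share in the outer parts was above that of DMRs between tissues on 18 of the 22 sequences, and above that of unshared liver regions on 14. Unshared liver regions were themselves above DMRs between tissues on 19 sequences and were also most frequent in the last part, with 319, and unshared muscle regions had 23.46% in the outer parts, so this position was not particular to the shared DMRs.

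Spacing between successive shared DMRs was wide and uneven. The median gap was 194356 bp (179618 to 209104 bp), with quartiles of 45839 and 507036 bp. Gaps ran from 6 bp to 3886352 bp, the longest being on NC_036785.1. There were 101 gaps of up to 1 kb (5.17% of 1954) and 206 of over 1 Mb. The coefficient of variation of the gaps, the SD divided by the mean, was 1.31. It was 1.24 for unshared liver regions, 1.21 for unshared muscle regions and 1.77 for DMRs between tissues. The value for shared DMRs was thus closer to those of the other species DMRs than to that of the tissue DMRs.

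Counts in windows were also uneven. In 770 windows of 1 Mb there were on average 2.57 shared DMRs, with a variance 1.93 times the mean, and 119 windows (15.5%) held none. The ratio of variance to mean was 2.04 for unshared liver regions and 6.90 for DMRs between tissues, which are more numerous, and the ratio grows with the mean count. Shared DMRs were thus slightly above unshared liver regions by the variation of gaps and slightly below them by this ratio. The order by the ratio is not a like comparison, since unshared liver regions averaged 3.09 per window. The fullest window was the stretch from 9000001 to 10000000 on NC_036782.1, with 14 shared DMRs, 10 unshared liver regions and 6 DMRs between tissues. The following windows, with 13 each, were adjacent on NC_036790.1 from 30000001 to 32000000. Unshared liver regions averaged 2.12 per window where there was no shared DMR, 3.07 in the 134 windows with 3, 4.14 in the 50 windows with 5, 3.08 in the 25 windows with 6 and 4.68 in the 22 windows with 7. Each group with more shared DMRs than that held 10 windows or fewer. In these groups unshared liver regions averaged between 4.9 and 10 per window, and the value of 10 came from 1 window.

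Clusters of shared DMRs were small. When neighbours up to 10 kb apart were joined, 453 of the 1976 placed members (22.9%) fell into 208 clusters, of which 177 held 2 members, 26 held 3 and 5 held more. In 39 pairs of successive shared DMRs, all at gaps up to 10 kb, both overlapped one and the same muscle region. The clusters count these as separate members. The percentage in clusters was 21.4% for unshared liver regions, 17.0% for unshared muscle regions and 65.8% for DMRs between tissues, and a larger list has shorter gaps and so more clusters. Members in clusters had a median length of 568 bp (522 to 616 bp) and those alone 522 bp (500 to 552 bp). By sequence the percentage in clusters ran from 3.85% of 52 members on NC_036798.1 to 41.8% of 79 on NC_036792.1.

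The largest cluster held 5 members. It lay on NC_036782.1 from 9269368 to 9299014, and its members of 617, 793, 870, 449 and 1667 bp were covered by muscle regions to between 30.8 and 75.3%. No unshared liver region fell inside it, and the nearest DMR between tissues was 21829 bp from its last member. A cluster of 4 members on NC_036794.1 was the tightest of the 5 largest, with 6686 bp from 13922506 to 13929191. In it 3 members were fully covered by muscle regions. Only 3 muscle regions fell within its span, so some of its members lay on the same muscle region. The other clusters of 4 lay on NC_036786.1 from 1420551 to 1431539, on NC_036792.1 from 948106 to 963643 and on NC_036800.1 from 7319755 to 7335070. None of these clusters held an unshared liver region between its members.

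Up to 1 kb, the next liver region was shared more often after a shared DMR, in part through the rule itself. Where the next liver region was up to 1 kb away, it was shared in 100 of 171 cases after a shared DMR (58.5%, 50.71 to 65.95%) and in 55 of 167 cases after an unshared one (32.9%, 25.9 to 40.6%). In 38 of those 100 cases both liver regions overlapped one and the same muscle region, so that both are shared by the rule. Without these pairs the share after a shared DMR was 62 of 133 (46.6%, 37.9 to 55.5%), an interval that overlaps the one after unshared regions, and this removal takes out only pairs in which both are shared. From 1 to 10 kb the percentages were 53.6% (47.0 to 60.1%) and 45.2% (39.2 to 51.3%), with intervals that overlap. They were 47.3% and 44.3% from 10 to 100 kb, and 43.8% and 44.5% beyond 100 kb.

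**Figure D4:**
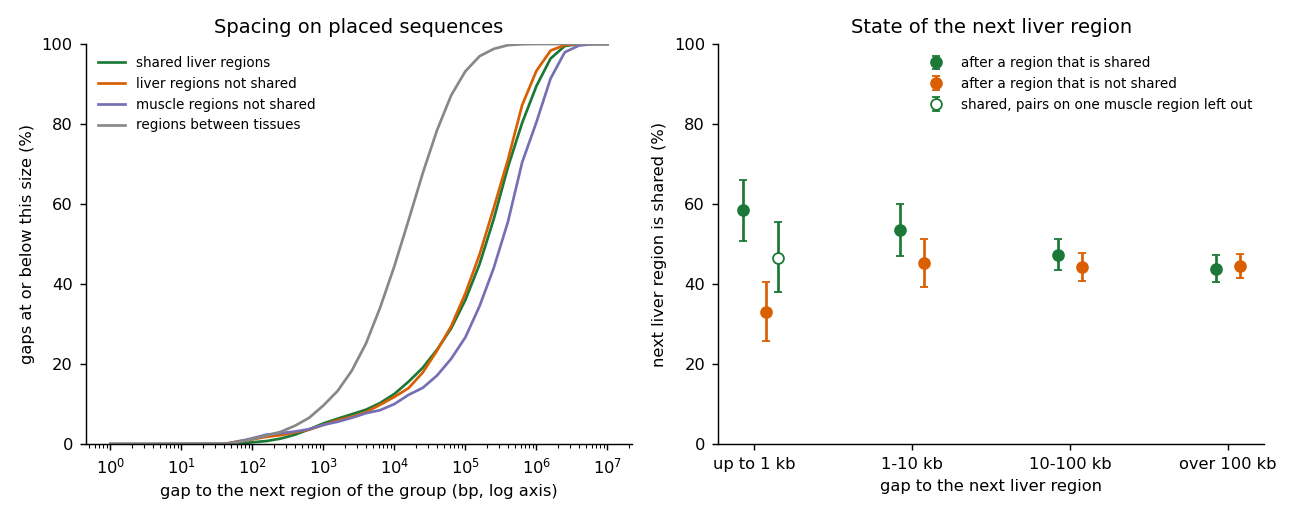
The left plot gives the cumulative percentage of gaps between successive regions of each group at or below a size in bp, on a log axis. The right plot gives the percentage of next liver regions that are shared, by distance and by the state of the first region, with exact binomial 95% intervals. An open point stands for pairs without a muscle region in common. The curve of shared regions runs close to that of unshared liver regions. The filled points stand apart at gaps up to 1 kb (58.5 against 32.9%), and the interval of the open point (46.6%) overlaps that of unshared regions.

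Shared DMRs overlapped DMRs between liver and muscle less often than unshared regions did. On placed sequences 31 of 1976 shared DMRs (1.57%, 1.07 to 2.22%) overlapped a DMR between tissues. The same was true of 187 of 2380 unshared liver regions (7.86%, 6.81 to 9.01%) and of 198 of 1330 unshared muscle regions (14.9%, 13.0 to 16.9%). The muscle partners of the shared DMRs were as low as the shared DMRs, with 25 of 2072 (1.21%). Shared DMRs had the lower percentage on all 22 sequences, and on 4 sequences none of them met a DMR between tissues. For scale, DMRs between tissues measured 8.75 Mb in total, unplaced ones included, and the placed sequences spanned 760 Mb. By bases, 0.432% of the shared DMRs lay in DMRs between tissues, against 5.30% of unshared liver regions and 13.3% of unshared muscle regions. The contrast thus includes high values in unshared regions and is not a trait of the shared DMRs alone. An expected overlap was not computed.

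This contrast is partly built into the lists. All of them come from the same methylomes, and where species differ in one tissue and not in the other, the tissues must differ in at least 1 species, although not necessarily by enough to be listed. Overlap with DMRs between tissues is therefore not a separate readout of the shared DMRs. How much of the contrast is due to this was not tested.

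The contrast was also present between regions of like length. Shared DMRs had a lower percentage than unshared liver regions in each class up to 2000 bp, for example 0.454% of 441 against 9.24% of 498 at 301 to 500 bp and 0.770% of 649 against 14.4% of 291 at 501 to 1000 bp. At 1001 to 2000 bp it was 3.41% of 323 against 20% of 65. Over 2000 bp the values were close and their intervals wide, with 8 of 84 shared DMRs (9.52%, 4.202 to 17.9%) and 1 of 10 unshared liver regions (10%, 0.253 to 44.5%).

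Within the shared DMRs, the bases outside the common stretch met tissue DMRs more often. Of the 1.19 Mb common to liver and muscle regions, 0.266% lay in DMRs between tissues. The figure was 0.828% for the remaining bases of the shared DMRs and 2.04% for the remaining bases of their muscle partners. In unshared liver regions it was 5.30% and in unshared muscle regions 13.3%. Bases outside the common stretch are listed for 1 tissue only, so the built-in part of the contrast enters here too. Within the shared DMRs the values rest on few bases, 3.17 kb in the common stretches and 4.13 kb outside them.

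Over all sequences, 42 shared DMRs overlapped a DMR between tissues. Their median length was 1162.5 bp and the median overlap 142 bp (1 to 425 bp). In 22 of them the bases common to liver and muscle were touched, and in 20 the DMR between tissues lay only where the muscle list has no region. For 8 of the 42, DMRs between tissues covered over 50% of the region. The regions on NC_036799.1 from 6338641 to 6338950 (310 bp), on NC_036790.1 from 1494940 to 1495154 (215 bp) and on NC_036782.1 from 6411365 to 6411561 (197 bp) lay wholly within both a muscle region and a DMR between tissues, so that they are listed as different between species in each tissue and between tissues as well. The longest overlap was 425 bp of a region of 1514 bp on NC_036786.1, from 63693364 to 63694877.

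Away from direct overlap, the groups differed less in their distance to tissue DMRs. With overlapping regions counted at a distance of 0, the median was 17508 bp for shared DMRs (16061 to 18917 bp). It was 14004 bp for unshared liver regions (12985 to 15197 bp) and 12284 bp for unshared muscle regions (10500 to 13618 bp). Among regions that did not overlap a DMR between tissues, the medians were 18014, 16371 and 16955 bp. Between 1 and 1000 bp away were 69 shared DMRs (3.49%), 76 unshared liver regions (3.19%) and 61 unshared muscle regions (4.59%). From 1001 to 5000 bp the percentages were 13.8, 15.2 and 14.0% in the same order. From 10001 to 50000 bp lay 50% of the shared DMRs and 40.4% of the unshared liver regions, and beyond that 17.1% and 18.6%. Medians by sequence also count overlaps as 0, so the difference in direct overlap enters them. By these, the shared median was longer than the unshared one on 18 of the 22 sequences. It was longest on NC_036782.1, at 32684 bp against 32431 bp for unshared liver regions there, and this sequence also had the fewest DMRs between tissues per length, 21.7 per Mb. It was shortest on NC_036797.1, at 11722 bp. The shared DMR farthest from a DMR between tissues was 272659 bp away.

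**Figure D5:**
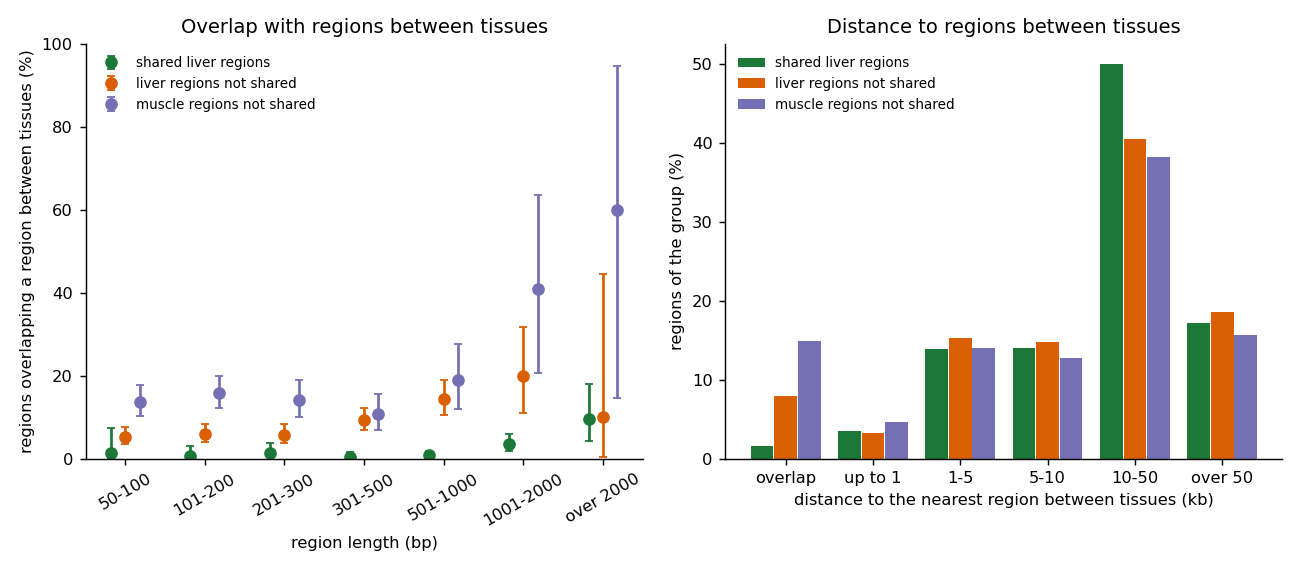
The left plot gives the percentage of shared liver regions, unshared liver regions and unshared muscle regions that overlap a DMR between tissues, by length class in bp, with exact binomial 95% intervals. The right plot gives the percentage of each group by distance to the nearest DMR between tissues in kb; shared regions are lowest in direct overlap (1.57% against 7.86 and 14.9%) and differ less at the other distances.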

How the data were processed

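The authors mapped bisulfite reads with Bismark, after trimming with Trim Galore, to UMD2a genomes corrected for variants of each species. They called DMRs between groups of fish with DSS and deposited 4 lists of positions. The calls had cutoffs on methylation difference, length, number of CG sites and p-value. Versions of these tools are not printed here. Starts were read as counted from 0, by which the shortest region of the deposited lists measures 50 bp, and positions are printed as counted from 1. For RNA-seq, the authors deposited TPM per gene and library from kallisto; these served only the check of tissues, for which 2 of the listed marker genes were found under their symbols.

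Regions were shared at an overlap of at least 1 bp. Gaps ran from the end of a region to the start of the next on placed sequences, and clusters joined gaps of up to 10 kb. Shares carry exact binomial intervals and medians order-statistic intervals at 95%. Named regions are the 10 longest shared DMRs, the 5 clusters with most members, those at an extreme of a quantity, and examples chosen after their values were seen. Overlap, distance and cluster functions were tested on simulated lists. Members and comparisons were chosen with earlier results of these data known. Calculations used scipy 1.17.1 and pandas 2.3.3 in Python 3.11.15, and plots were drawn with matplotlib 3.10.9. Expression at genes near shared DMRs was planned and not run, since no annotation of UMD2a was used here. The depth behind each region is unknown.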

Additional observations from a re-analysis of the deposited data

How the results depend on the processing

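Over 12 alternative settings, 23 of 47 recomputed values stayed within 1.5 times the count or within the interval of the value as reported, and 24 moved. The coefficient of variation has no such interval, and any change in its rounded value counted as moved. The share of liver regions that are shared became 37.3% with an overlap of at least 100 bp, 33.0% with at least 50% of the liver region, 29.1% with at least 50% of both regions, 45.0% and 46.5% with regions of at least 100 and 200 bp, and 45.4% on placed sequences. With an overlap of at least 100 bp, the median length of shared DMRs was 565 bp, their median gap 221246 bp and the coefficient of variation of gaps 1.29. With at least 50% of both regions, 1684 muscle regions remained in pairs, the median lengths were 542.5 bp for shared and 245 bp for unshared liver regions, the median gap was 293250 bp, the coefficient of variation 1.23, the number in clusters 202 and the overlap with DMRs between tissues 0.724%. With regions of at least 200 bp, the median lengths were 648 and 359 bp, the median gap 265877 bp, the coefficient of variation 1.27 and the number in clusters 271. Fewer regions enter under each stricter rule, which lengthens gaps and lowers the number in clusters. Joining gaps up to 50 kb put 867 shared DMRs in clusters. Within 1 kb of a DMR between tissues were 5.06% of shared DMRs. Counted on the common bases only, an alternative chosen after seeing the data, the overlap was 0.709%. Unshared liver regions had 7.33% under 100 bp of overlap, 7.29% under 50% of the liver region, 6.99% under 50% of both and 8.40% with regions of at least 200 bp, against 1.54, 0.899, 0.724 and 1.74% of shared DMRs. With starts counted from 1, 2456 regions were shared. Expression at genes near shared DMRs, in liver and in muscle, was not run. No paired analysis was possible because the lists carry no replicate and no test was made. The main limits are that methylation levels, direction and depth are not in the lists, that lists share fish, and that neighbouring regions are not independent.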
